A study of Mus musculus with 19 samples.

Results

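The comparison described here was between Ang II-treated IKKβ-/- and IKKβ+/+ mice: 5 mice of each genotype, 10 of the 19 mice in the series, taken as every mouse that the labels gave as knockout or wild-type and as infused with Ang II. The suprarenal abdominal aorta (SRA), the stretch of aorta above the renal arteries, was removed 24 h after the start of a subcutaneous infusion from osmotic pumps, and its poly(A) RNA was sequenced. The labels gave the dose of Ang II as 500 to 1000 ng/min/kg, and the methods for the sequenced mice as 1000 ng/min/kg. IKKβ-/- mice were SMA-CreERT2 IkkbFlox/Flox ApoE-/- males on a C57BL/6 background, in which tamoxifen-activated Cre, driven by the promoter of smooth muscle α-actin, deletes the gene in smooth muscle cells. The age of all mice was given as 8 weeks, which in the study's methods is the age at tamoxifen injection, before a rest period and the infusion. The IKKβ+/+ mice carried the same Cre, the same ApoE deficiency and wild-type Ikkb alleles, and they too received tamoxifen, so deficiency in ApoE, Cre and tamoxifen were shared by both groups. Endothelial cells, adventitial fibroblasts, fat and blood cells of the IKKβ-/- wall kept the gene. The other 9 mice, 5 IKKβ+/+ and 4 IKKβ-/-, were infused with saline, and they serve below to show whether a genotype difference was also seen without Ang II. They also entered the fit from which the spread of each gene was estimated, the filter on low values and the list scores.

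IKKβ, encoded by Ikbkb, is the catalytic kinase that phosphorylates the inhibitors which hold NF-κB in the cytoplasm; once they are degraded, NF-κB factors such as p65 enter the nucleus and switch on inflammatory genes. Ang II acts on smooth muscle through its type 1 receptor, which raises blood pressure, turns on immediate early genes and promotes the production of collagen, elastin-crosslinking enzymes and matricellular proteins. A smooth muscle cell that trades its contractile proteins for matrix production is called synthetic, and the comparison asks how the early transcriptional state of the Ang II-exposed wall differs when smooth muscle cells lack IKKβ.

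Values are normalized counts, the reads of a gene divided by the size factor of the mouse, and differences are IKKβ-/- minus IKKβ+/+ on log2(normalized count + 1). In the 10 Ang II-treated mice, between 11824041 and 16739076 reads lay on genes. The libraries differed in the share of mitochondrial reads, which was 10.1 to 14.1% in the IKKβ+/+ mice but 7.88 to 37.2% in the IKKβ-/- mice, with the mice numbered X2384 (26.5%), X2385 (37.2%) and X2386 (24.2%) highest. X2380 (18.5%) also lay above every IKKβ+/+ mouse. With saline the share was 5.99 to 9.07% in IKKβ+/+ mice and 8.89 to 38.7% in IKKβ-/- mice. Results that rest on X2384, X2385 and X2386 are given with and without these 3 mice. Without them, only X2380 and X2383 stand for the IKKβ-/- group. In whole tissue, fewer cells of a type and less RNA per cell cannot be told apart.

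Ikbkb was lower in every IKKβ-/- mouse. It measured 708, 772, 685, 686 and 779 normalized counts in the IKKβ+/+ mice and 572, 430, 672, 515 and 549 in the IKKβ-/- mice. The groups did not overlap, although the highest IKKβ-/- mouse lay just under the lowest IKKβ+/+ mouse. The means were 726 ± 46.3 and 548 ± 87.9 (SD, n = 5 each), 24.5% lower in IKKβ-/- mice, with p = 0.00794 in a two-sided exact permutation test, the smallest p that 5 against 5 mice can give. In the fit across all genes the log2 difference was -0.42 ± 0.12 (SE) with an adjusted p of 0.173, which did not pass the threshold of 0.1. The SRA also holds cells that do not express the Cre and keep the gene.

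Of 14845 genes tested, 19 passed an adjusted p under 0.1 with a fold change above 1.2 (0.128%), 16 of them lower in IKKβ-/- mice (0.108%) and 3 higher (0.0202%). At an unadjusted p under 0.05, 2118 genes differed (14.3%), 1241 lower (8.36%) and 877 higher (5.91%), while 49.1% of all genes had a difference above 0 and the median difference was -0.01. In 228 genes (1.54%) the 5 IKKβ-/- mice did not overlap with the 5 IKKβ+/+ mice, and 18 of the 19 called genes were among them. The adjusted p of the called genes lay between 0.0649 and 0.0967 and none was under 0.05. Qsox1 was the last gene inside the threshold and Nim1k, at 0.103, the nearest outside. So close to the threshold, the count depended on single mice: it was 0 without X2350, X2352, X2358 or X2384, 2 without X2385, 5 without X2386, 8 without X2359, 116 without X2383, 285 without X2380 and 553 without X2356. Without the 3 mice of the highest mitochondrial share it was 2. All 19 genes kept the direction of their difference each time, but for the 18 without overlap leaving out mice could not change it. Mice X2350 to X2359 are IKKβ+/+ and X2380 to X2386 IKKβ-/-. With only these 10 mice in the fit, 1 gene was called. On the recovered reads edgeR called 17 genes and DESeq2 522, of which 162 were higher and 360 lower, and limma with array quality weights called 5 higher and 10 lower.

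**Figure D1:**
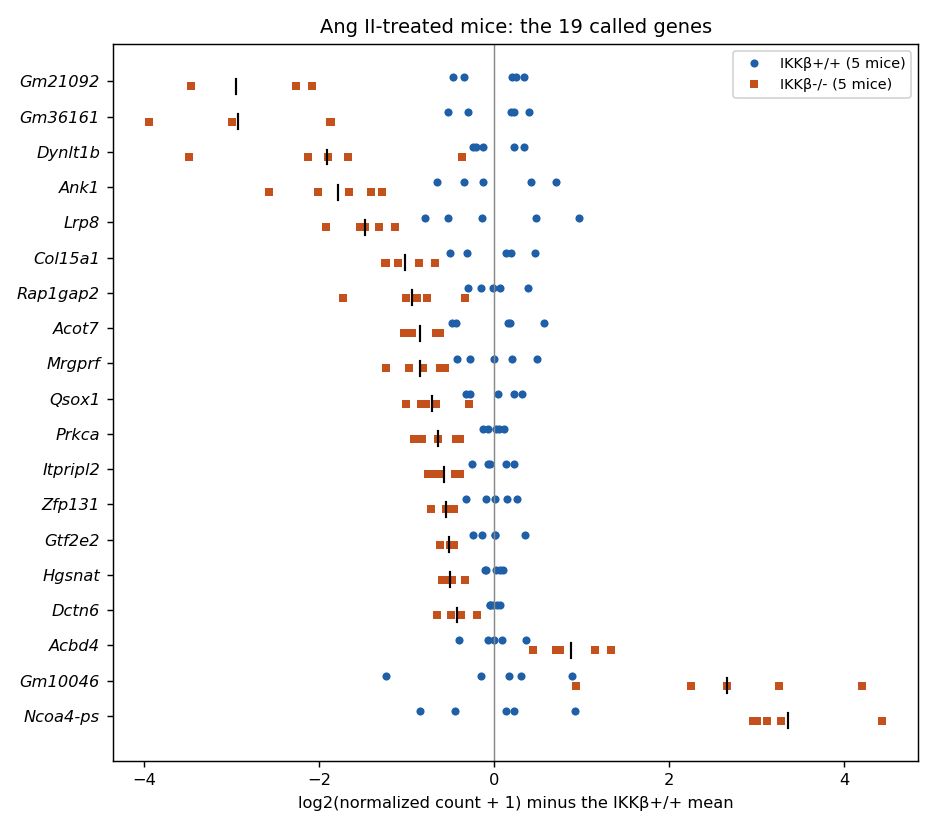
Level of each of the 19 called genes in the 10 Ang II-treated mice, as log2(normalized count + 1) minus the mean of the IKKβ+/+ mice (x axis); circles are IKKβ+/+ mice, squares IKKβ-/- mice, and the black bar is the IKKβ-/- mean. The 16 lower genes lie left of 0 and the 3 higher genes right, and Qsox1 alone has overlapping groups.

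Among the genes that fell, the most abundant was Col15a1, which encodes the collagen XV chain, a proteoglycan-type collagen that anchors basement membranes to the matrix around them. Col15a1 measured 10234, 10605, 7494, 12820 and 6552 normalized counts in IKKβ+/+ mice and 3911, 5112, 3956, 4334 and 5812 in IKKβ-/- mice. The lowest IKKβ+/+ mouse was thus above the highest IKKβ-/- mouse. Its mean fell 2.06-fold, from 9540 ± 2520 to 4630 ± 820 (SD), a log2 difference of -1.02 ± 0.20 (SE) with an adjusted p of 0.0803. The gene lies at chr4:47208161-47313167 in GRCm38. Qsox1, a secreted sulfhydryl oxidase that makes disulfide bonds in matrix proteins, measured 6901, 6074, 4714, 7364 and 4873 normalized counts in IKKβ+/+ mice and 4840, 3731, 2927, 3317 and 3428 in IKKβ-/- mice. Here IKKβ-/- mouse X2380 lay above 1 IKKβ+/+ mouse, X2356. The log2 difference was -0.71 ± 0.15 and the adjusted p 0.0967.

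Several of the genes that fell act at the membrane or in signaling. Lrp8, the apolipoprotein E receptor 2 that also binds reelin, measured 457, 161, 134, 326 and 212 in IKKβ+/+ mice and 93.3, 83.3, 106, 61 and 79.7 in IKKβ-/- mice. The IKKβ+/+ values were spread over a wide range, yet all lay above the IKKβ-/- values. Lrp8 fell 3.05-fold (log2 difference -1.47 ± 0.29, adjusted p 0.0803). Prkca, the classical protein kinase C-α that acts downstream of Gq-coupled receptors such as that for Ang II, measured 651, 574, 550, 623 and 610 against 445, 386, 318, 340 and 458, with a log2 difference of -0.64 ± 0.12. Prkca was among the tightest of these genes, with an SD of 40.1 around 602 in IKKβ+/+ mice. Rap1gap2, which turns off the small GTPase Rap1, measured 923, 636, 697, 740 and 575 against 561, 384, 213, 352 and 413. Its highest IKKβ-/- mouse, X2380, came close to the lowest IKKβ+/+ mouse, and the log2 difference was -0.94 ± 0.19. Mrgprf, an orphan receptor of the Mas-related family that is found in smooth muscle, measured 1169, 835, 689, 963 and 622 against 542, 564, 355, 474 and 425 (log2 difference -0.84 ± 0.17). Itpripl2, a membrane protein related to an inositol trisphosphate receptor-interacting protein, lay between 2171 and 3040 in IKKβ+/+ mice and between 1537 and 1982 in IKKβ-/- mice (log2 difference -0.57 ± 0.11). The adjusted p of all 4 was 0.0803.

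The remaining protein-coding genes that fell away from chromosome 8 were an enzyme, a transcription factor and a motor subunit. Acot7, a cytosolic acyl-CoA thioesterase that releases free fatty acids from their CoA esters, measured 406, 260, 540, 414 and 269 in IKKβ+/+ mice and 236, 178, 189, 185 and 229 in IKKβ-/- mice, a log2 difference of -0.85 ± 0.17. Zfp131, a zinc-finger transcriptional regulator, measured 847, 662, 568, 782 and 711 against 488, 515, 483, 498 and 431, a log2 difference of -0.55 ± 0.11. In both genes the IKKβ-/- mice lay in a narrow band below all IKKβ+/+ mice. Dynlt1b, a light chain of cytoplasmic dynein, measured 109, 85.4, 79, 118 and 80.5 against 7.39, 28.6, 24.3, 72.3 and 20.6 (log2 difference -1.91 ± 0.39). It has near-identical copies, between which reads can be split; of these Dynlt1f averaged 5.34 and 12 normalized counts, Dynlt1a 3.37 and 7.31 and Dynlt1c 2.35 and 0.687 in IKKβ+/+ and IKKβ-/- mice, so Dynlt1b is uncertain as a single gene.

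3 genes rose. Acbd4, a peroxisomal protein that binds acyl-CoA and tethers peroxisomes to the endoplasmic reticulum, measured 636, 597, 771, 450 and 569 normalized counts in IKKβ+/+ mice and 1322, 813, 977, 1505 and 1004 in IKKβ-/- mice. All IKKβ-/- mice lay above all IKKβ+/+ mice, and the mean rose 1.86-fold (log2 difference 0.88 ± 0.17, adjusted p 0.0803). Ncoa4-ps, a pseudogene of the ferritin-autophagy receptor Ncoa4, measured 3.21, 5.34, 2.19, 5.73 and 9.94 against 49, 43.7, 54.9, 45 and 123 (log2 difference 3.36 ± 0.54, adjusted p 0.0649). Its parent Ncoa4 averaged 181 in IKKβ+/+ and 127 in IKKβ-/- mice (adjusted p 0.46), and reads of the pair can be assigned to either copy. The transcript Gm10046 had 3, 4, 7, 5 and 1 reads in IKKβ+/+ mice and 23, 10, 27, 53 and 34 reads in IKKβ-/- mice. Nim1k, a kinase related to AMPK, Rab4a, a GTPase of endosome recycling, and Tmpo, a protein of the nuclear lamina, had the next smallest p among genes with higher values and groups that did not overlap, with adjusted p of 0.103, 0.122 and 0.122, and so did not pass. Nim1k, Rab4a and Tmpo had log2 differences of 1.11 ± 0.24, 0.82 ± 0.18 and 0.48 ± 0.10.

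5 of the 19 called genes lay on chromosome 8, which carries the deleted gene itself, and all 5 were lower in IKKβ-/- mice. Within 5 Mb of Ikbkb, 3 of 67 genes tested were called (4.48%, beside 0.128% of all genes): Ank1, Hgsnat and the predicted gene Gm21092. Ank1, the ankyrin that links spectrin to membrane proteins, starts 0.27 Mb from Ikbkb, at chr8:22974844-23150497. It measured 166, 79, 92.1, 135 and 63.6 in IKKβ+/+ mice and 31.4, 37.3, 24.3, 16.1 and 41.1 in IKKβ-/- mice, with no overlap and a 3.56-fold lower mean (log2 difference -1.78 ± 0.32, adjusted p 0.0803). Hgsnat, the lysosomal enzyme that acetylates heparan sulfate before its degradation, measured 628, 684, 705, 624 and 722 against 444, 533, 462, 480 and 450 (log2 difference -0.51 ± 0.10). Gm21092 had 12, 11, 11, 8 and 7 reads in IKKβ+/+ mice and 0, 2, 0, 0 and 1 in IKKβ-/- mice, too few for a useful fold change. The neighbors nearest to Ikbkb did not pass, among them Polb (0.22 ± 0.14) and Vdac3 (-0.12 ± 0.11). Of 2 other near genes named after their values were seen, Plat, the tissue plasminogen activator, had a log2 difference of -0.87 ± 0.30 (adjusted p 0.218) and Smim19 of 0.44 ± 0.11 (adjusted p 0.162). Both were called with saline in the same direction, Plat at -1.37 (adjusted p 0.0483) and Smim19 at 0.53 (adjusted p 0.0469). Over all 67 genes the median difference was 0.02, with 35 above 0 and 32 below, close to the median of all genes. With saline 8 of the 67 were called (11.9%, beside 5.47% of all genes).

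Farther along the same chromosome, Gtf2e2, a subunit of the general transcription factor TFIIE, and Dctn6, a subunit of dynactin, lay 11.03 and 11.38 Mb from Ikbkb. Gtf2e2 measured 687, 541, 455, 540 and 488 in IKKβ+/+ mice and 380, 379, 380, 350 and 391 in IKKβ-/- mice (log2 difference -0.51 ± 0.10). Dctn6 measured 1135, 1159, 1228, 1198 and 1139 against 831, 1023, 747, 904 and 895 (log2 difference -0.42 ± 0.08). The IKKβ-/- mice lay below all IKKβ+/+ mice for both genes. In a window of 12 Mb, chosen after these values were seen, 5 of 125 genes were called (4%). The only other called transcript was the noncoding RNA Gm36161 on chromosome 13, with 9, 18, 15, 12 and 17 reads in IKKβ+/+ mice and 1, 4, 0, 2 and 0 in IKKβ-/- mice. Gm36161 (chr13:120010390-120018931) lies close to the called gene Zfp131 (chr13:119765187-119790889) and to Nim1k (chr13:119710094-119755882), the nearest gene outside the threshold. Whether these neighbors differ independently of each other was not tested.

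**Figure D2:**
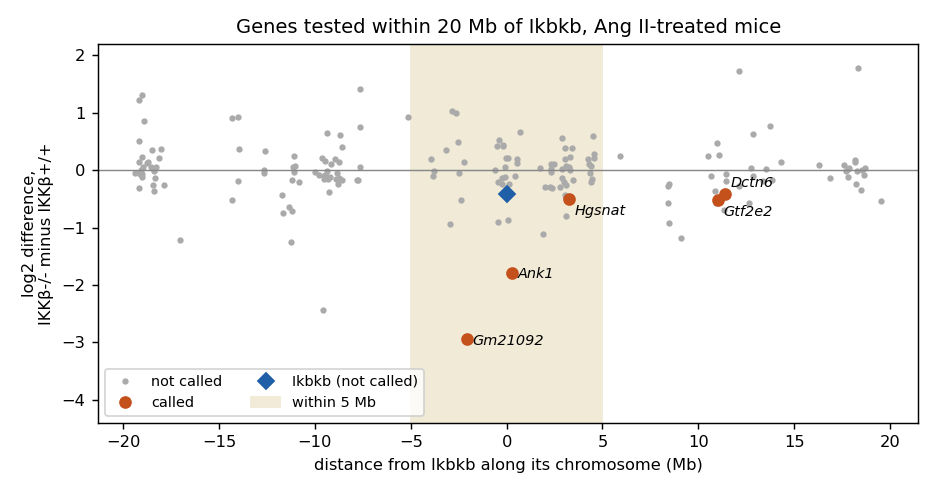
Log2 difference between Ang II-treated IKKβ-/- and IKKβ+/+ mice (y axis) against distance from Ikbkb on its chromosome in Mb (x axis), for genes tested within 20 Mb. Orange points passed the threshold, the blue diamond is Ikbkb, and the shaded band spans 5 Mb on either side; the 5 called genes all lie below 0, while the gray points scatter around it.

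The saline-infused mice are separate animals and give the same genotype difference without Ang II. There 812 genes were called (5.47%), and 19.2% had an unadjusted p under 0.05. The saline count was 0 with the score of the clock genes as a covariate, 31 with the mitochondrial share and 145 with the white adipocyte score, and from 24 to 1726 as each mouse was left out, lowest without X2406 and highest without X2409. Of the 19 genes called with Ang II, 17 had the same sign with saline, beside 58.3% of all genes, and 5 were also called: Hgsnat, Prkca, Gm21092, Gm36161 and Acbd4. Acbd4 lay between 482 and 835 in saline-infused IKKβ+/+ mice and between 1157 and 1411 in saline-infused IKKβ-/- mice, a log2 difference of 0.99 ± 0.18 beside 0.88 ± 0.17 with Ang II. Hgsnat differed by -0.62 ± 0.11 with saline, again without overlap.

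In other called genes the saline difference was near 0. Acot7 lay between 159 and 219 normalized counts in saline-infused IKKβ+/+ mice and between 166 and 204 in saline-infused IKKβ-/- mice, a log2 difference of -0.04 ± 0.18. Zfp131 differed by 0.14 ± 0.12, Gtf2e2 by 0.08 ± 0.11, Dctn6 by -0.03 ± 0.09 and Qsox1 by -0.07 ± 0.16 with saline. The test of the Ang II difference minus the saline difference called 0 genes (0%) in limma, with a smallest adjusted p of 0.215, although 11.1% of genes had an unadjusted p under 0.05. edgeR called 3 genes and DESeq2 277, and limma called 79 without X2356 and 19 without X2406. In that test Zfp131 had -0.69 ± 0.16 (adjusted p 0.215), Gtf2e2 -0.59 ± 0.15 (0.242), Acot7 -0.81 ± 0.25 (0.281) and Dctn6 -0.39 ± 0.12 (0.282). A genotype difference particular to Ang II was thus not shown for any of them, and these genes were picked out by the same Ang II-treated mice that enter the test.

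**Figure D3:**
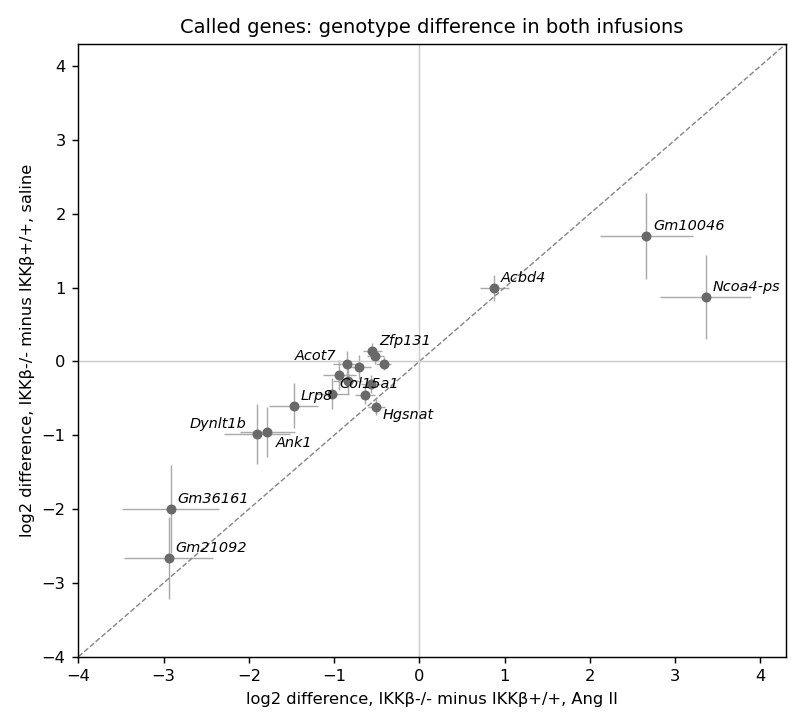
Log2 difference between IKKβ-/- and IKKβ+/+ mice with Ang II (x axis) and with saline (y axis) for the 19 called genes; bars are standard errors and the dashed line marks equal differences. Hgsnat and Acbd4 lie by the line, Acot7 and Zfp131 near 0 on the saline axis.

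Promoter sequence was at hand in RefSeq (GRCm38.p6) for 10 of the 19 called genes, as 16 windows of 250 bases that end at a transcription start. The κB consensus, the binding pattern of NF-κB, was found on either strand in 3 of these 16 windows, 1 of Prkca and 2 of Zfp131, beside 7.25% of 32851 promoters. It was chosen after a narrower form of the motif, with a run of T in its second part, had matched 0 of the 16 windows and 1.41% of promoters, so the count depends on the form used. The CArG box, through which serum response factor acts on smooth muscle and immediate early genes, was found in 1 window, beside 1.47%. These matches describe letters and do not show binding, and the windows of Prkca and Zfp131 are rich in G and C. Shown are the 1 window of Rap1gap2 that holds the CArG box, in capitals, that of Prkca with the κB match in capitals, and that of Col15a1, the most abundant gene that fell, which holds neither. They lie at chr11:74559028-74559277 (minus strand), chr11:108343889-108344138 (minus strand) and chr4:47207762-47208011 (plus strand). The other windows of Rap1gap2 hold no CArG box, among them the window that borders the annotated start of the gene (chr11:74610916-74611165).
Rap1gap2: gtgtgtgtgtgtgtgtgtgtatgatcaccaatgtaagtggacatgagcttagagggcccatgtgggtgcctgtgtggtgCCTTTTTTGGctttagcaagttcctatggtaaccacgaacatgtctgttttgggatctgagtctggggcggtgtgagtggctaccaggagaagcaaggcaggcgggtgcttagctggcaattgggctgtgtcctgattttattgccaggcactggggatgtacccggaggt
Prkca: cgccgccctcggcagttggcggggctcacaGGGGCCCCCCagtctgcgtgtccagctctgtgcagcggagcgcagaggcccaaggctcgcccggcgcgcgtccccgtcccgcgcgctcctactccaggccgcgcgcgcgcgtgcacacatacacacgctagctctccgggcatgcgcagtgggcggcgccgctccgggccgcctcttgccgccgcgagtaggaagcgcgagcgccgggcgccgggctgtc
Col15a1: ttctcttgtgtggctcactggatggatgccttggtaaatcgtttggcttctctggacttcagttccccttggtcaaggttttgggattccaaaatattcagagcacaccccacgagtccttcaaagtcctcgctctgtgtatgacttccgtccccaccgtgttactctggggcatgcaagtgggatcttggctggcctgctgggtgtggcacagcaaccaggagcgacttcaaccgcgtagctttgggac

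Gene lists describe how genes of a shared role were placed, by the median of their members and the count of members, beside the median of -0.01 and the counts of all genes. Only the collagen list and the genes beside Ikbkb held a called member. Collagens and their modifying enzymes lay lower in IKKβ-/- mice: all 22 members tested were below 0, the median was -0.44, 12 had an unadjusted p under 0.05 (8.36% of all genes did in that direction) and 1, Col15a1, was called. The median was -0.42 without the 3 mice of high mitochondrial share and -0.40 with saline. The groups did not overlap in 5 of the 22 members (1.54% of all genes did not), of which Col18a1, Col6a1, Col6a2 and Plod1 are named here after their values were seen. Col18a1, the basement membrane collagen that yields endostatin, measured 42789, 43372, 32962, 50532 and 33231 normalized counts in IKKβ+/+ mice and 26912, 29244, 16757, 22710 and 26594 in IKKβ-/- mice (log2 difference -0.74 ± 0.19, adjusted p 0.157). Col6a1 and Col6a2, chains of the beaded-filament collagen VI, had -0.56 ± 0.18 and -0.68 ± 0.19, and the collagen lysyl hydroxylase Plod1 -0.25 ± 0.10 (adjusted p 0.212, 0.168 and 0.271). With saline 4 of the 22 members were called lower and 0 higher, beside 5.47% of all genes called in either direction. Col6a1 (-0.65 ± 0.19, adjusted p 0.0812) and Col6a2 (-0.62 ± 0.20, adjusted p 0.0967) were among those. Of the fibrillar collagen genes measured by qPCR in the study, Col1a2 differed by -0.13 ± 0.21 and Col3a1 by -0.15 ± 0.26, and without X2380 both were slightly above 0 (0.01 and 0.05).

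Elastic fiber and crosslinking genes had a median of -0.32, with 17 of 20 members below 0, 11 of them at an unadjusted p under 0.05 and 0 called. Lysyl oxidases, which crosslink collagen and elastin, were placed alike. Lox measured 14778, 15488, 9493, 19156 and 11454 in IKKβ+/+ mice and 10542, 8028, 7996, 10198 and 8506 in IKKβ-/- mice, overlapping through X2356 (log2 difference -0.60 ± 0.20, adjusted p 0.212). Loxl1, Loxl2 and Loxl4 had -0.42 ± 0.11, -0.68 ± 0.24 and -0.72 ± 0.26, with adjusted p of 0.162, 0.225 and 0.225. Loxl3 had no overlap, from 1392 to 1735 in IKKβ+/+ mice against 1187 to 1330 in IKKβ-/- mice (-0.39 ± 0.09, adjusted p 0.153). Ltbp2, a latent TGF-β binding protein of microfibrils, had -0.82 ± 0.19 (adjusted p 0.143). P4ha2 and P4ha3, subunits of collagen prolyl hydroxylase, had -0.36 ± 0.17 and -0.67 ± 0.47.

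TGF-β and matricellular genes had the lowest median of the matrix lists, -0.60, with 16 of 20 members below 0, 11 at an unadjusted p under 0.05 and 0 called; with saline the median was -0.13. Ccn2, the connective tissue growth factor, measured 186061, 78618, 37336, 116149 and 54868 normalized counts in IKKβ+/+ mice and 54537, 30858, 33345, 38172 and 22204 in IKKβ-/- mice. The IKKβ+/+ mice spanned a wide range and X2356 lay among the IKKβ-/- mice (log2 difference -1.24 ± 0.41, adjusted p 0.212). Postn, the matricellular protein periostin, measured 115489, 103053, 69270, 113188 and 68004 against 56749, 52844, 44673, 49391 and 47961, with no overlap (-0.86 ± 0.19, adjusted p 0.124). Tnc, tenascin C, had -1.29 ± 0.31 and Tgfb1 -0.51 ± 0.13 (adjusted p 0.153 each). Metalloproteinases and their inhibitors had a median of -0.20, with 15 of 16 members below 0 and 4 at an unadjusted p under 0.05. Of these, the disintegrin metalloproteinase Adam12 had -2.05 ± 0.54, the aggrecanase Adamts1 -1.07 ± 0.30 and the inhibitor Timp1 -0.83 ± 0.36 (adjusted p 0.162, 0.174 and 0.312). Mmp2, Mmp9 and Mmp14 had -0.16 ± 0.26, 0.61 ± 0.44 and -0.22 ± 0.11. With saline the median of the metalloproteinase list was -0.42. Of its 16 members 1 was called higher and 2 lower, beside 5.47% of all genes called in either direction. Adamts1 was the member called higher (1.24 ± 0.32, adjusted p 0.0571), and Mmp2 was called lower (-0.91 ± 0.28, adjusted p 0.0901). Ccn2 was also above 0 with saline (0.88 ± 0.44, adjusted p 0.276).

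Immediate early genes, the transcripts that rise first when a receptor is engaged, had the lowest median of the lists with more than 1 member tested, -0.64, with 24 of 26 members below 0, 15 at an unadjusted p under 0.05 and 0 called. With saline their median was 0.43. The list score, the mean over members of log2 level minus the mean of all 19 mice, was 1.13, -0.36, -0.51, 0.29 and 0.58 in the IKKβ+/+ mice and -0.44, -0.97, -0.49, -0.82 and -0.57 in the IKKβ-/- mice. The IKKβ+/+ mice were far apart, and X2352 and X2356 lay near the IKKβ-/- mice. Fosl2 and Fosl1, AP-1 subunits, had -1.10 ± 0.30 and -2.77 ± 0.82 (adjusted p 0.163 and 0.179). In 4 of 26 members the groups did not overlap (1.54% of all genes did not), named here after their values were seen: the antiproliferative Btg2 (907 to 2497 against 641 to 743), Fos (417 to 676 against 228 to 400), the phosphatase Dusp1 (1786 to 4629 against 1454 to 1662) and the mRNA-decay protein Zfp36 (919 to 1875 against 642 to 849). Btg2, Fos, Dusp1 and Zfp36 had log2 differences of -1.14 ± 0.35, -0.70 ± 0.56, -0.65 ± 0.28 and -0.64 ± 0.30, with adjusted p of 0.189, 0.579, 0.304 and 0.346. Among the glucocorticoid targets, with a median of -0.17, the kinase Sgk1 and the cell cycle inhibitor Cdkn1a had -1.0 ± 0.28 and -0.94 ± 0.24 without overlap (adjusted p 0.174 and 0.153).

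Cholesterol biosynthesis enzymes had a median of -0.54, with 18 of 20 members below 0, 11 at an unadjusted p under 0.05 and 0 called. Sqle, squalene epoxidase, measured 2137, 606, 499, 818 and 786 normalized counts in IKKβ+/+ mice and 628, 497, 209, 178 and 195 in IKKβ-/- mice (log2 difference -1.50 ± 0.37, adjusted p 0.153). X2350 stood far above the other IKKβ+/+ mice, and X2380 overlapped with the lower of them. The IKKβ-/- mice of high mitochondrial share were also the lowest 3 by the list score (-0.12, -0.46 and -0.41, beside 0.29 and 0.20 in X2380 and X2383), and without them the median was -0.34. Of the SREBP regulators and sterol transport genes, median -0.03, the sterol-regulated transcription factor Srebf2 had -0.53 ± 0.22 (adjusted p 0.285).

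**Figure D4:**
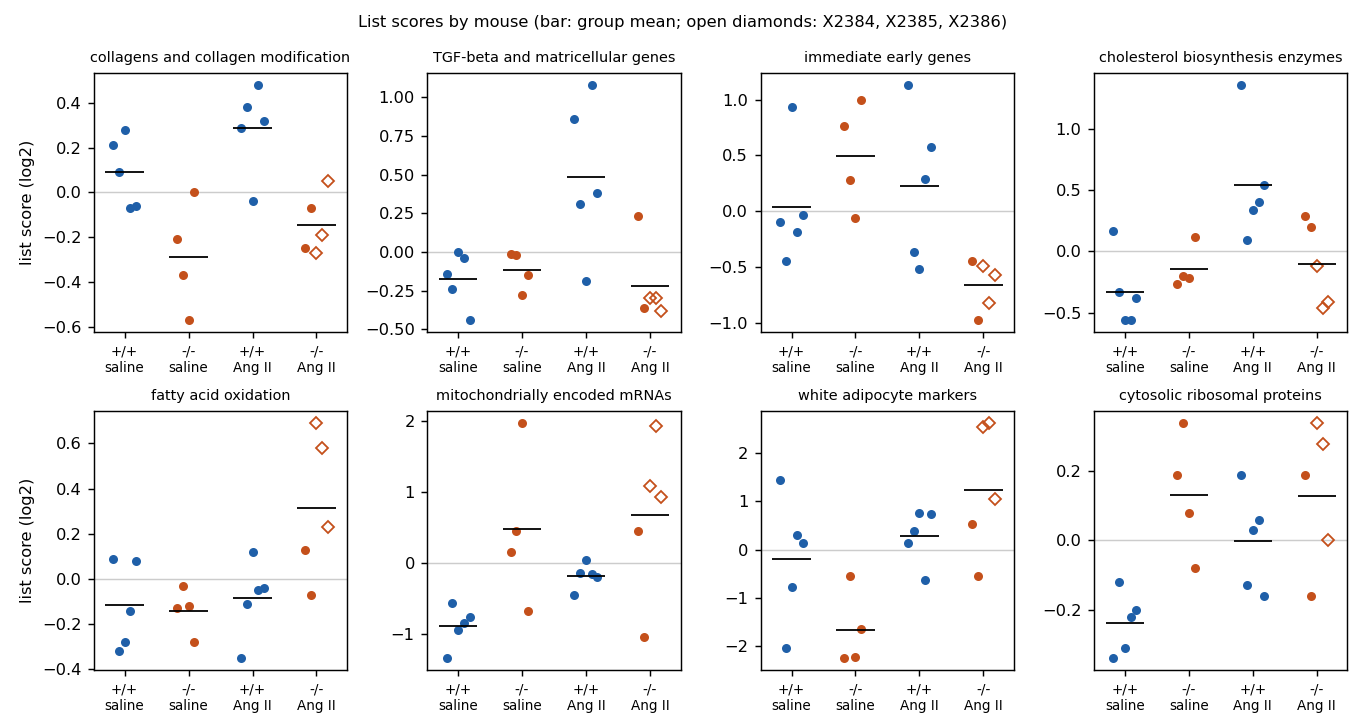
Score of 8 gene lists in each mouse (y axis, mean over members of log2(normalized count + 1) minus the mean of all 19 mice) for the 4 groups; bars are group means and open diamonds are X2384, X2385 and X2386. Collagen and matricellular scores are lower in most Ang II-treated IKKβ-/- mice, while the fatty acid oxidation, mitochondrial and adipocyte scores of the Ang II-treated mice are highest in the open diamonds.

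The IKK complex and NF-κB factors had a median of -0.25, with 22 of 24 members below 0 and 10 at an unadjusted p under 0.05, Ikbkb included, and 0 called. The list scores of the groups did not overlap, from 0.07 to 0.41 in IKKβ+/+ mice and from -0.25 to 0.01 in IKKβ-/- mice. The deleted gene Ikbkb is part of this score, and no other list that was scored had groups without overlap. With saline the median was -0.05, and the scores ran from -0.05 to 0.05 in IKKβ+/+ mice and from -0.14 to -0.05 in IKKβ-/- mice. Rel, the c-Rel subunit of NF-κB, measured 197, 110, 131, 180 and 196 against 74.9, 86.5, 98.3, 97.9 and 114 (-0.75 ± 0.20, adjusted p 0.162). Nfkb1, Rela and Relb, the p50, p65 and RelB subunits, named after their values were seen, had -0.24 ± 0.10, -0.25 ± 0.12 and -0.35 ± 0.14. Cytokines and adhesion molecules that NF-κB switches on were at a median of -0.52, and 14 of 19 lay below 0, yet 1 member, Ptgs2, had an unadjusted p under 0.05. Ptgs2, the inducible cyclooxygenase, measured 4437, 359, 315, 3187 and 989 in IKKβ+/+ mice and 575, 198, 434, 310 and 242 in IKKβ-/- mice, overlapping in the lower IKKβ+/+ mice (-1.74 ± 0.60, adjusted p 0.223). Il6 measured 116, 6.4, 11, 164 and 7.95 against 27.7, 2.38, 3.17, 6.42 and 3.86 (-2.01 ± 1.02, adjusted p 0.377). The median of the list was -0.44 with saline. With Ang II it ranged from -0.72 to -0.15 as each mouse was left out. Il1b, Ccl2, Vcam1 and Icam1 had -0.82 ± 0.71, -0.65 ± 0.67, -0.27 ± 0.25 and 0.03 ± 0.27.

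Among contractile smooth muscle genes the median was -0.19 with all mice and 0.04 without the 3 mice of high mitochondrial share, 17 of 19 members were below 0, 2 had an unadjusted p under 0.05 and 0 were called. With saline the median was 0.28, and 1 of the 19 was called higher and 0 lower, beside 5.47% of all genes called. Myh11, the smooth muscle myosin heavy chain, measured 124602, 104941, 92938, 113226 and 114719 against 112179, 142235, 61000, 73287 and 116505. The IKKβ-/- mice spanned the IKKβ+/+ range, and the 95% interval of the log2 difference ran from -0.70 to 0.34. Tagln, the actin-binding protein SM22α, measured 150046, 124228, 110816, 152567 and 113415 against 141006, 115215, 94559, 129045 and 113666, with an interval from -0.56 to 0.29. Cnn1, calponin, had -0.43 ± 0.20 and Pln, the calcium-pump regulator phospholamban, 0.89 ± 0.34 (adjusted p 0.349 and 0.263). With saline Tagln and Cnn1 were at 0.49 and 0.60 without overlap (adjusted p 0.215 and 0.136), and Myh11 at 0.24 with overlap (adjusted p 0.656). Klf4, a transcription factor of the synthetic state, measured 2414, 1148, 1291, 1147 and 1912 against 1430, 986, 1577, 1537 and 1414, an interval from -0.58 to 0.30. Of the angiotensin components and RGS proteins, median 0.17, the oxidase Nox4 had 0.36 ± 0.21 and the receptor Agtr1a -0.81 ± 0.48.

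Genes of growth and of protein supply were mixed. The mTOR complex and its regulators had a median of -0.09 and autophagy machinery of -0.03, with 1 of 26 and 1 of 25 members at an unadjusted p under 0.05. In them Mlst8, an mTOR subunit, had -0.31 ± 0.13, Ddit4 -0.50 ± 0.27, Atg9a -0.33 ± 0.16, Atg7 -0.32 ± 0.16 and Atg5 -0.06 ± 0.11, the last with an interval from -0.28 to 0.16. The groups did not overlap in Atg9a or in Atg14 (0.20 ± 0.13, named after its values were seen), 2 of the 25 autophagy members, beside 1.54% of all genes. The ATF4 amino acid response had a median of -0.34, with 9 of 22 members lower at an unadjusted p under 0.05, among them the alanyl-tRNA synthetase Aars (-0.47 ± 0.14) and the arginine transporter Slc7a1 (-0.83 ± 0.29). Ribosome biogenesis had -0.21, with 44 of 50 members below 0 and 5 at an unadjusted p under 0.05, beside 8.36% of all genes; the median was -0.10 without the 3 mice of high mitochondrial share and also -0.10 without X2350. Bop1 and Heatr1, which process ribosomal RNA, had -0.65 ± 0.18 and -0.52 ± 0.16. ER chaperones and ERAD genes had -0.06, with Atf6 at -0.35 ± 0.13 and Edem1 at -0.32 ± 0.15. Mitosis and replication genes had -0.57, -0.39 without the 3 mice and -0.90 without X2380, with 8 of 27 members lower at an unadjusted p under 0.05. Mki67, the Ki-67 antigen of cycling cells, measured 112, 90.7, 48.3, 61.1 and 56.7 against 59.1, 15.1, 42.3, 24.1 and 19.3 (-1.29 ± 0.35, adjusted p 0.162), and Cenpf, a kinetochore protein, had -2.04 ± 0.60 without overlap, from low counts. None of these lists held a called gene.

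Some of the lists with medians above 0 were highest in the mice of high mitochondrial share. Fatty acid oxidation genes had a median of 0.30, with 21 of 25 members above 0, 14 at an unadjusted p under 0.05 (5.91% of all genes did in that direction) and 0 called. Acadm and Hadh, enzymes of β-oxidation, had 0.45 ± 0.13 and 0.51 ± 0.17 (adjusted p 0.184 and 0.213). The score was 0.69, 0.58 and 0.23 in X2384, X2385 and X2386 and 0.13 and -0.07 in X2380 and X2383, and without the first 3 mice the median was 0.05. White adipocyte markers had a score of 2.53, 2.62 and 1.05 in X2384, X2385 and X2386, 0.53 and -0.54 in the other IKKβ-/- mice and -0.63 to 0.76 in IKKβ+/+ mice. All 11 members tested were above 0, the median was 1.04, 0 were called, and without the 3 mice it was -0.23. The sum of the 12 white markers ranged from 8360 to 15100 normalized counts in IKKβ+/+ mice and from 9500 to 47300 in IKKβ-/- mice. Fabp4, the adipocyte fatty acid binding protein, had 1.03 ± 0.54 and the lipase Pnpla2 0.43 ± 0.23. Brown adipocyte markers had 1.68, and 0.82 without the 3 mice, with Ppargc1a at 0.94 ± 0.37 and Cox8b at 2.60 ± 1.01. Their median with saline was -0.94. Fatty acid synthesis genes had 0.12, and -0.61 with saline. The desaturase Scd1 measured 2431, 3534, 5396, 1866 and 4024 against 16308, 3697, 15657, 8414 and 13330 (1.65 ± 0.58, adjusted p 0.223). With saline Scd1 was at -1.56 ± 0.61 (adjusted p 0.171). Fads2 had -0.49 ± 0.20 with Ang II, and Thrsp, named after its values were seen, did not overlap (1.82 ± 0.75). With the white adipocyte score as a covariate 0 genes were called in the comparison, and with the mitochondrial share as a covariate 0. Over the 11 alternatives other than leaving out single mice, the log2 difference of Col15a1 ranged from -1.05 to -0.83 and that of Ncoa4-ps from 2.80 to 3.57. The part of adipose tissue in the differences was not tested beyond these fits.

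The 8 mitochondrially encoded mRNAs were all above 0, with a median of 0.81 and 0 at an unadjusted p under 0.05, and -0.12 without the 3 mice, beside 1.46 with saline; mt-Nd6 and mt-Nd3 had 0.88 ± 0.45 and 1.19 ± 0.63. Nuclear oxidative phosphorylation genes had 0.11 and, without the 3 mice, 0.002, beside 0.26 with saline. There 19 of 84 were called higher, while 5.47% of all genes were called. Cox7a2l had 0.42 ± 0.15 with Ang II. Cytosolic ribosomal protein genes had 0.17, with 64 of 77 members above 0 and 14 at an unadjusted p under 0.05, and 0.03 without the 3 mice. With saline their median was 0.36 and 28 of 77 were called higher, beside 5.47% of all genes called in either direction. Rps4x measured 3221, 2985, 3613, 3213 and 3054 against 3633, 3640, 4449, 4037 and 4055, without overlap (0.30 ± 0.08, adjusted p 0.168). Rps20, named after its values were seen, also did not overlap (0.28 ± 0.09), while Rpl22 did (0.46 ± 0.14). Of the 77 members 2 did not overlap, beside 1.54% of all genes. Interferon-γ GTPases and antigen presentation genes had 0.25 and type I interferon-stimulated genes 0.26, each with 3 members at an unadjusted p under 0.05, and both were below 0 without the 3 mice (-0.09 and -0.06). Irf1, Isg15 and Bst2 had 0.47 ± 0.19, 1.17 ± 0.37 and 0.39 ± 0.17.

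**Figure D5:**
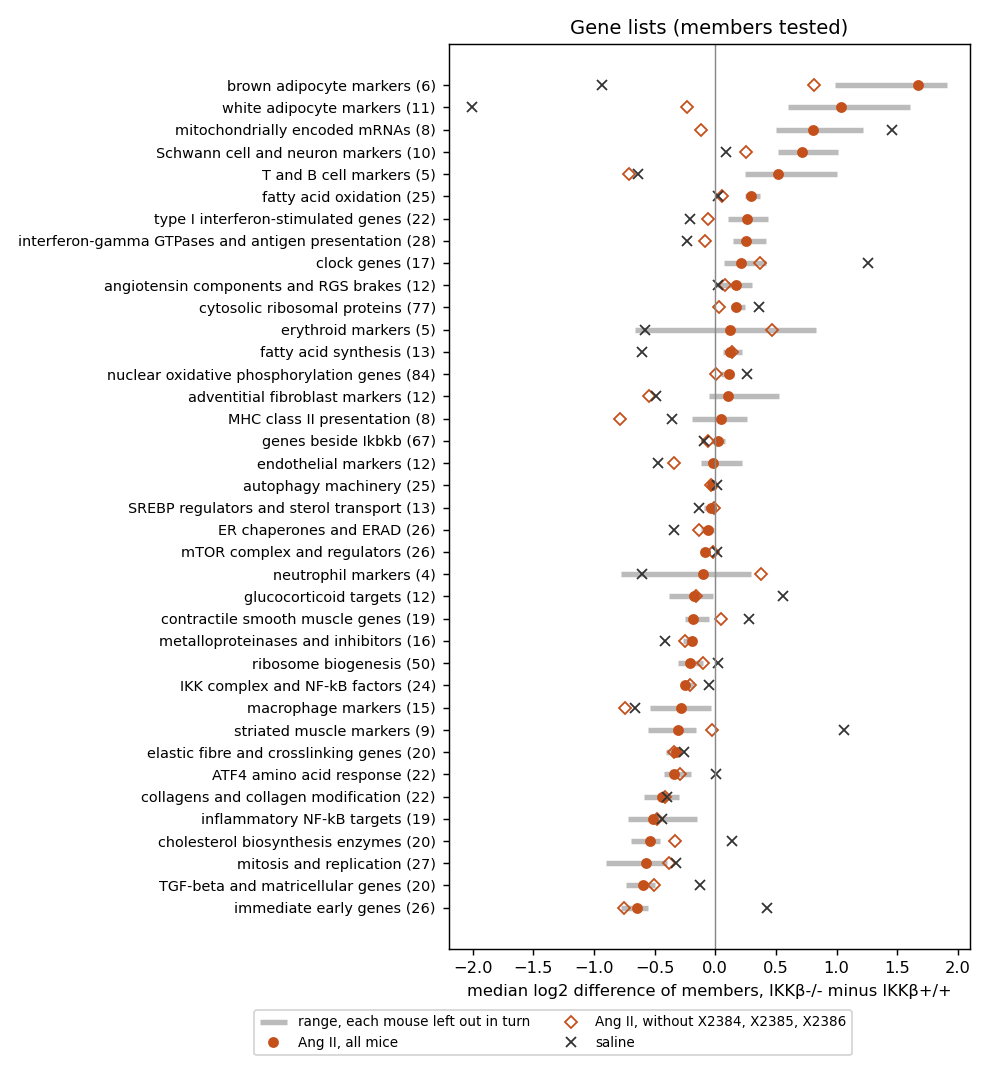
Median log2 difference of the members of each gene list with at least 4 members tested, between IKKβ-/- and IKKβ+/+ mice (x axis), with the number of members tested in parentheses; filled circles are all Ang II-treated mice, gray bars the range as each mouse was left out, open diamonds the value without 3 IKKβ-/- mice of high mitochondrial share, and crosses the saline-infused mice. Matrix lists keep their place without the 3 mice, and white adipocyte markers, mitochondrial mRNAs and interferon lists are among those that cross 0.

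Clock genes, which keep the daily rhythm, had a median of 0.21 with Ang II and 1.26 with saline, and 0 of 17 were called with Ang II but 9 higher and 3 lower with saline. Of all genes 5.47% were called with saline. In 4 of them the groups did not overlap with Ang II (1.54% of all genes did not), named after their values were seen: Nr1d1 (0.80 ± 0.39), Tef (0.68 ± 0.32), Dbp (1.42 ± 0.72) and, in the other direction, Arntl (-0.85 ± 0.57). Nfil3 and Cry1 had -1.43 ± 0.46 and -0.85 ± 0.38. Adjusted p were 0.353 for Nr1d1, 0.338 for Tef, 0.374 for Dbp, 0.506 for Arntl, 0.212 for Nfil3 and 0.325 for Cry1. The time of day of collection is not given in the sources used here.

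Markers of other wall cells were checked in the same way. Macrophage markers had a median of -0.28, which was -0.75 without the 3 mice of high mitochondrial share, -0.54 without X2384 and -0.04 without X2380, with 14 of 15 members below 0, 3 at an unadjusted p under 0.05 and 0 called, and their sum ranged from 10700 to 16000 normalized counts in IKKβ+/+ mice and from 5730 to 20400 in IKKβ-/- mice. Cd68, a lysosomal protein of phagocytes, measured 165, 138, 151, 188 and 175 against 88.7, 105, 176, 51.4 and 95.1, with X2384 alone among the IKKβ+/+ values (-0.76 ± 0.24, adjusted p 0.212). Lgals3, galectin-3, had -0.90 ± 0.30 (adjusted p 0.212), and MHC class II presentation genes had a median of 0.05, and -0.78 without the 3 mice, with Ctss at -0.58 ± 0.25 and H2-DMb1 at 0.28 ± 0.22. With saline the macrophage median was -0.66, with 2 of 15 members called lower and 0 higher (5.47% of all genes were called). Cd68 was among them (-0.93 ± 0.26, adjusted p 0.0674), while Lgals3 was at -0.05. Ctss was called lower with saline too (-0.86 ± 0.27, adjusted p 0.0928), where the MHC class II median was -0.36. Endothelial markers had -0.01, with 5 members above 0 and 7 below, and -0.34 without the 3 mice; of the members of smallest p, Cldn5 was at 0.37 ± 0.33 and Egfl7 at 0.44 ± 0.40 with all mice, and both were below 0 without the 3. Adventitial fibroblast markers had 0.11, and -0.55 without the 3 mice. Of these, Gpx3 was at 0.83 ± 0.37 and Dcn at 0.60 ± 0.32 with all mice, and at -0.15 each without the 3. Schwann cell and neuron markers had 0.71, and 0.26 without the 3 mice, with 5 members higher and 1 lower at an unadjusted p under 0.05; Uchl1 (1002 to 2591 against 667 to 995) had -0.79 ± 0.22 without overlap. Neutrophil markers and T and B cell markers had few reads and medians of -0.10 and 0.52, which were 0.37 and -0.71 without the 3 mice. Csf3r and S100a9 had -0.43 ± 0.44 and -0.25 ± 1.0, and Cd79b and Lck 0.89 ± 0.58 and -0.86 ± 0.68. Erythroid markers had 0.12, and 0.47 without the 3 mice, with Hba-a1 at 0.98 ± 1.02 and Hbb-bt at -0.91 ± 1.24. The erythroid sum varied widely, from 141 to 3590 normalized counts in IKKβ+/+ mice and from 98.4 to 4960 in IKKβ-/- mice. Striated muscle markers had -0.30, and -0.03 without the 3 mice, with Actc1 at -0.82 ± 0.53 and Tnnt3 at -0.65 ± 0.46. Of the chromaffin cell and adrenal cortex markers 1 each passed the filter, Chgb (-1.61 ± 1.25) and Star (-0.80 ± 0.60), and of the mesothelial markers 0. The summed level of the chromaffin list ranged from 0 to 2760 normalized counts in IKKβ+/+ mice and from 0 to 16.7 in IKKβ-/- mice. The part of these cell types in the differences was not tested. The smooth muscle genes Myh11 and Tagln were at or above 61000 normalized counts in all 10 mice, as the label of aortic wall implies.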

How the data were processed

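Poly(A) libraries of SRAs from 19 mice were sequenced as single reads. Per the labels and the study's methods, reads were trimmed with Trimmomatic 0.35, aligned to GRCm38 with STAR 2.7.1a, counted per Gencode gene and normalized with DESeq2 1.30.1. These normalized counts (unit: signal) are what was deposited by the authors, and 100% were whole multiples of 1 read within 0.05 read, so the reads were recovered. The table holds 20408 genes, and 0 of its columns were left unused.

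Genes with a value of at least 10 in at least 4 of the 19 mice were tested (14845; the fourth highest value was 10.16 in Slc13a3, just inside, and 9.98 in Cd244a, just outside). limma 3.58.1 in R 4.3.3 (lmFit, eBayes with a trend) was run on log2(value + 1) with 4 group means in 1 fit of all 19 mice, and p-values were two-sided with Benjamini-Hochberg adjustment over the genes tested. A pseudocount of 1 pulls low genes toward 0. Calls needed both an adjusted p below 0.1 and a difference of more than 1.2-fold. Named genes were Ikbkb, up to 10 called genes per direction with groups that did not overlap and a mean of at least 50 in either group (5 by smallest p where fewer qualified), the genes the study measured by qPCR, and up to 4 called members of each list or else its 2 members of smallest p; all other called genes, and the genes said to be so, were named after their values were seen. Some genes that the rule names are not reported here. The comparison, the lists and the rule were chosen with earlier results of these data known. Each mouse is a separate animal with its own number, and no pair of replicates agreed within sampling noise. Between 11824041 and 16739076 reads per Ang II-treated mouse limit the precision of low genes, which are given as reads. Intervals are 95% intervals of the limma fit. The scripts were tested on simulated data. Alternatives used edgeR 4.0.16 and DESeq2 1.42.0 on the recovered reads, which called 17 and 522 genes, other settings and covariates, and each mouse left out in turn.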

Additional observations from a re-analysis of the deposited data

Results flagged for a closer look

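In 29 of 266 groups of 5 mice (133 named genes in both Ang II-treated groups), a single mouse lay far from the other 4, its gap to the nearest being more than 0.71 of the whole range; chance gives about 5% of groups. Values are normalized counts. Mouse X2350 (IKKβ+/+) stood above its group in Sqle (2140), Fosl1 (769), Dusp1 (4630) and Zfp36 (1880) and below it in Col3a1 (68200). X2356 (IKKβ+/+) stood apart in Atg5 (403), mt-Nd3 (13.2), Agtr1a (263) and Chgb (260). X2358 did in Ccl2 (235), Star (93.6) and Thrsp (28.7), X2352 in Hbb-bt (361) and X2359 in Pln (227).

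Among the IKKβ-/- mice, X2380 stood apart in P4ha3 (179), Il6 (27.7), Cnn1 (38100), Lgals3 (817), Csf3r (89.6), S100a9 (305), Hba-a1 (470) and Hbb-bt (480). X2384 did in Cox8b (202), Ctss (768) and Thrsp (1680), X2386 in Ncoa4-ps (123), Loxl4 (219) and H2-DMb1 (122), and X2383 in Klf4 (986). Ncoa4-ps is the only called gene among them, and its other 4 IKKβ-/- mice also lay above all IKKβ+/+ mice.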

How the results depend on the processing

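The number of called genes changed with the processing. All 19 kept their direction under every alternative run. They were picked for a large difference in these same mice. For the 18 with groups that did not overlap, leaving out mice could not change the direction. The count with Ang II was 1 with only the mice compared in the fit, 522 by DESeq2, and 0 with the white adipocyte score as a covariate. Of the alternatives chosen after seeing the data, the mitochondrial share as a covariate gave 0 and leaving out X2384, X2385 and X2386 gave 2. The saline count was 1420 with only its own mice, 1902 with array weights, 1436 by DESeq2, 145 with the adipocyte score, 31 with the mitochondrial share and 0 with the clock score, the last of these also chosen after seeing the data. The difference between infusions gave 76 genes with array weights, 3 by edgeR, 277 by DESeq2 and 15 with the mitochondrial share. As each mouse was left out, these counts ranged from 0 to 553, from 24 to 1726 and from 0 to 79. The causes were not tested. No paired analysis was possible because each mouse carried its own number.

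As each mouse was left out, the log2 difference crossed 0 in these genes, ranging from -0.217 to 0.015 for Col1a2, from -0.277 to 0.048 for Col3a1, from -0.239 to 0.029 for Klf4, from -0.229 to 0.243 for Icam1, from -0.306 to 0.06 for Mmp2, from -1.012 to 0.193 for S100a9 and from -1.927 to 0.301 for Hbb-bt. Without X2384, X2385 and X2386 the log2 difference was 0.234 for P4ha3, 0.205 for Myh11, -0.044 for mt-Nd6, -0.063 for mt-Nd3, 0.138 for Csf3r, 0.608 for S100a9, -0.448 for Cldn5, -0.049 for Egfl7, -0.152 for Gpx3, -0.153 for Dcn, -0.022 for Pnpla2, -0.12 for Fabp4 and 0.085 for Tnnt3, each of opposite sign to the value with all mice. With the mitochondrial share as a covariate the sign also turned for Myh11 (0.087), Icam1 (-0.009), mt-Nd6 (-0.127), Cldn5 (-0.058) and Egfl7 (-0.019), and Icam1 was -0.151 with array weights and -0.039 with the adipocyte score. S100a9 was 0.458 by edgeR and 0.446 by DESeq2, and Hbb-bt 0.188 and 0.171. None of these genes was called with all mice.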
